A study of Mus musculus with 4 samples.

Results

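The set described here is every 3′ end that 3'READS recorded on the minus strand of the mouse mitochondrial genome, together with the CstF64 CLIP alignments on that strand. It was chosen by chromosome and strand alone, with no threshold on the values. Over both 3'READS libraries it holds 1344 positions of 315205 in all, with 833 in the first library, 935 in the second and 424 in both. The CLIP replicates add 217 of 1101047 and 270 of 1352122 distinct alignments. The positions were divided by location on chromosome M into the control region (15423 to 16299), mt-Nd6 (13552 to 14070), the tRNA cluster (5018 to 5326) and the rest of the strand.

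3'READS selects fragments that carry a poly(A) tail and records where the tail begins. Both 3'READS libraries were made from a commercial RNA mix of 11 mouse cell lines, whose lines the labels do not name, and the RNA of both had passed 1 round of poly(A) selection. In the first, CU5T45, fragments were captured with an oligo that carries 5 U next to 45 T and released with RNase H, an enzyme that cuts RNA paired to DNA. In the second, oligo(dT)10-25, fragments were captured on beads coated with runs of 10 to 25 T. The CLIP libraries are 2 replicates from C2C12, a mouse myoblast line, in which RNA crosslinked to CstF64 by UV light was trimmed with RNase T1 and taken from complexes of 85 to 150 kDa.

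Mitochondrial DNA is transcribed on both strands into long precursors, which are cut mostly at the tRNAs that lie between the other genes. Most genes are read from one strand. The opposite strand, the minus strand of the reference, is transcribed from a promoter in the non-coding control region and carries mt-Nd6, a subunit of respiratory complex I, and 8 tRNA genes. Mitochondria add poly(A) with their own polymerase and without the nuclear cleavage machinery, to which CstF64, a subunit of the cleavage stimulation factor, belongs.

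The sequences below carry the ends that the results turn on. They are minus-strand RNA written as DNA, 5′ to 3′, from the GENCODE transcripts of GRCm38, and capitals mark the last base recorded before the tail and, where that base is A, the whole run of A that it closes. The first 4 are whole tRNA genes. Over both libraries the most used end within the gene lay short of its last base in mt-Tq, mt-Ta and mt-Tp, and at its last base in mt-Tc. The fifth is the stretch just past mt-Ta, opposite mt-Tw, and the last pair shows mt-Nd6 at its 3′ end and around its most used internal end. They lie at chrM:3772-3842, chrM:5018-5086, chrM:15356-15422, chrM:5192-5257, chrM:4987-5016, chrM:13552-13581 and chrM:13794-13833.
mt-Tq: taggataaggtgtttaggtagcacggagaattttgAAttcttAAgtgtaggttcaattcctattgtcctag
mt-Ta: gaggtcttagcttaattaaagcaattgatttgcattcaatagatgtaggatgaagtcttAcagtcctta
mt-Tp: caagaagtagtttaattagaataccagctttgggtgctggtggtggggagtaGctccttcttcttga
mt-Tc: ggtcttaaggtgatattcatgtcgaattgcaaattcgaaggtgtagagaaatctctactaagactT
opposite mt-Tw: cagAAgttaaacttgtgtgttttcttaggg
mt-Nd6 end: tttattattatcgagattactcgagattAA
mt-Nd6 inside: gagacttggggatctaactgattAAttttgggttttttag

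The files' own coordinates, which are of build mm9, had to be placed on these sequences first. On the minus strand the base at the recorded position was never A, in 0 of 1116 positions whose base is known. On the plus strand it was the base 2 nt further along that was never A, in 0 of 4278 positions. Both fit a position that counts from 0, so that the last base of the RNA is the recorded position plus 1 and any genomic A that follows the end has been taken into it. Where a tail starts within such a run of A cannot be told apart. Positions are given below as the files have them, and distances to genes use the last base.

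The CU5T45 library held 6738355 reads and the oligo(dT)10-25 library 3482826. Of these, 184933 and 194028 were mitochondrial. The minus strand took 19592 and 12721, which is 10.6% (95% exact binomial interval 10.5 to 10.7) and 6.56% (6.45 to 6.67) of the mitochondrial reads. A count of 0 allows up to 3 reads, or 0.445 and 0.861 counts per 1e6 reads (CPM). Each oligo had 1 library, so the libraries are compared and not the oligos, and no p-value is given. The intervals cover counting error only, since PCR copies were not marked as such.

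Minus-strand ends were concentrated in the control region. Its 214 positions held 17547 reads in CU5T45 and 10736 in oligo(dT)10-25, or 89.6% and 84.4% of the minus-strand reads. mt-Nd6 held 114 and 90 reads on 103 positions. The tRNA cluster held 81 and 121 reads on 27 positions, and the remaining 1000 positions held 1850 and 1774. Per 100 nt of strand there were 24.4 positions in the control region, 19.8 in mt-Nd6, 8.74 in the tRNA cluster and 6.85 elsewhere, or 10.1 elsewhere without a stretch of 4707 nt that was nearly empty on both strands. By this measure mt-Nd6 came near the control region in positions but not in reads. Of all 1344 positions 702, or 52.2%, rested on a single read.

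Measured as a share of all reads of the library, each of the 4 regions was lower in CU5T45 than in oligo(dT)10-25, by unequal amounts. The ratio of shares was 0.845 (95% exact interval 0.825 to 0.865) in the control region, 0.655 (0.492 to 0.873) in mt-Nd6, 0.539 (0.505 to 0.576) in the rest and 0.346 (0.258 to 0.462) in the tRNA cluster. The whole minus strand stood at 0.796 (0.778 to 0.814) and the plus strand at 0.471 (0.468 to 0.475), so minus-strand reads were 1.26-fold lower in CU5T45 and plus-strand reads 2.12-fold lower. The intervals of the control region, the rest and the tRNA cluster do not overlap each other. In the tRNA cluster 1 position decides the size, since without its most used position, 5026, the ratio was 0.188. Against mitochondrial reads alone the direction turned: the ratio became 1.62 for the strand, 1.71 for the control region, 1.33 for mt-Nd6 and 1.09 for the rest, and stayed below 1, at 0.702, in the tRNA cluster alone. The mt-Nd6 value is the least firm: its interval reached 1 with positions of 2 or more reads only (0.895, 0.629 to 1.28), with each position counted once (0.731, 0.510 to 1.05) and against mitochondrial reads (1.33, 0.999 to 1.77).

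**Figure D1:**
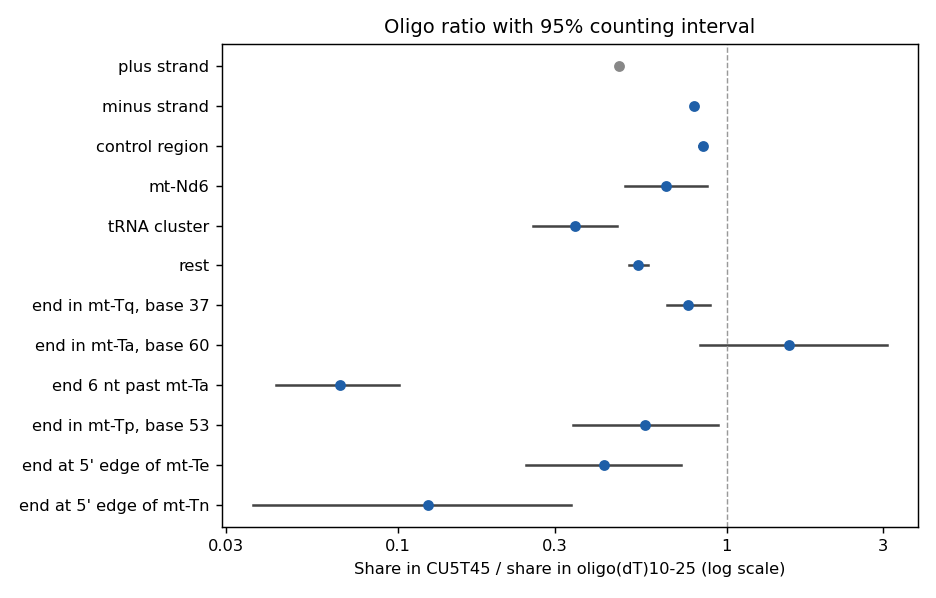
Ratio of the share of library reads in CU5T45 to that in oligo(dT)10-25 (horizontal log axis) for both strands, the 4 regions and 6 single ends; points are ratios and bars their 95% exact counting intervals. The regions spread from 0.346 in the tRNA cluster to 0.845 in the control region, and the end 6 nt past mt-Ta sits furthest to the left.

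More minus-strand positions were recorded with oligo(dT)10-25 although that library was shallower. Over all chromosomes CU5T45 had more, 236029 positions against 180853. After the CU5T45 reads were thinned at random to 3482826, they lay on 557 minus-strand positions against 935. The numbers were 148 against 193 in the control region, 34 against 66 in mt-Nd6, 11 against 24 in the tRNA cluster and 364 against 652 in the rest. The gap was therefore proportionally smallest in the control region. Thinning equalised the libraries and not the minus-strand reads, which stood at 10242 against 12721. By region they were 9242 against 10736 in the control region, 59 against 90 in mt-Nd6, 40 against 121 in the tRNA cluster and 901 against 1774 in the rest. The numbers of positions are thus not separate from the lower shares given above.

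Within the control region, 5 positions lying between 16160 and 16166 held most of the reads. Position 16163 had 5102 reads in CU5T45 and 2727 in oligo(dT)10-25, and 16161 had 3725 and 1851. Position 16160 had 2529 and 1426, 16166 had 1456 and 906, and 16165 had 1428 and 745. Their order was the same in both libraries. The 2 positions among them that are missing, 16162 and 16164, had no read in either library. Together the 5 made up 81.2% (80.6 to 81.7) and 71.3% (70.4 to 72.2) of the control-region reads, that is 14240 and 7655 reads. On the plus strand the same positions held no reads except 16160, with 24 over both libraries. Sequence of the control region was not used here, so what base lies at these positions is not given.

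Very few ends lay upstream of that group, nearer to where the strand's RNA begins. Above 16166 there were 13 and 18 reads, and the highest position recorded was 16242. Downstream, in the direction of transcription, ends were counted in windows, called patches here. Those down to 16023 adjoin each other and the main group. Reads numbered 466 and 674 at 16143 to 16155, 992 and 568 at 16103 to 16142, and 133 and 136 at 16063 to 16102. They numbered 788 and 907 at 16023 to 16062, and 289 and 284 at 15423 to 15662. The most used positions of the last 2 patches were 16053 (255 and 261 reads) and 15505 (42 and 31 reads). Between them reads were few, with 44 and 82 at 15863 to 16022 and 1 and 0 at 15663 to 15862. These windows were drawn after the profile had been seen.

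**Figure D2:**
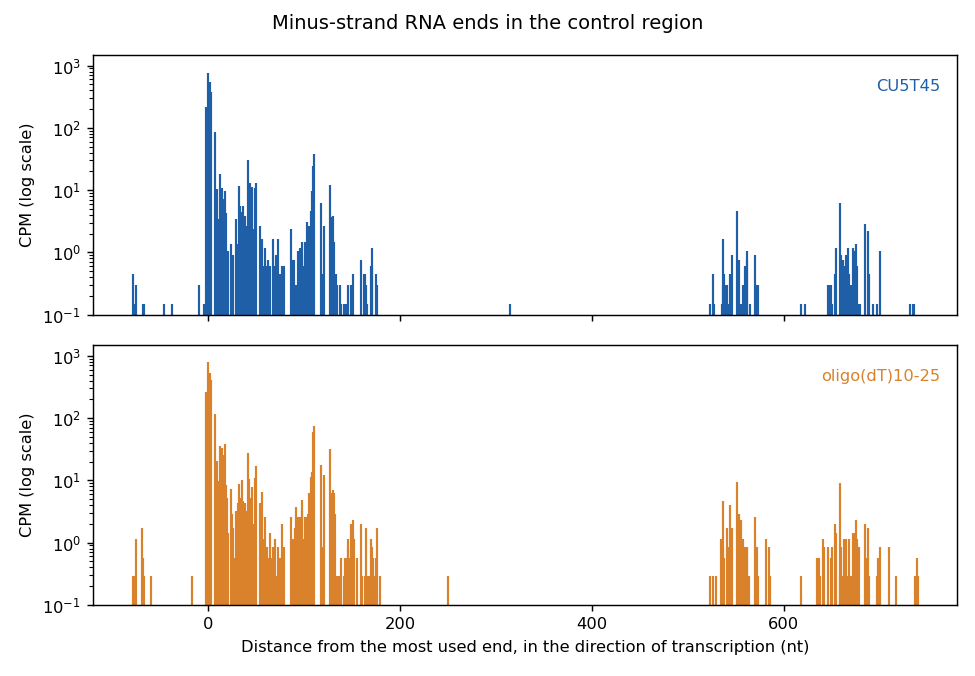
Minus-strand ends in the control region in CPM (vertical log axis) by distance in nt from the most used end, positive in the direction of transcription, with CU5T45 above and oligo(dT)10-25 below; each line is 1 position. Both libraries show the same tall group at 0, uneven ends within the next 200 nt, a nearly bare stretch and a further patch beyond 500 nt.

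The ratio of the libraries differed between the patches. The window that holds the main group, 16156 to 16168, had nearly equal shares, with a ratio of 0.950 (0.924 to 0.976). Directly downstream the ratio was 0.357 (0.317 to 0.403), a 2.80-fold lower share in CU5T45. The next patch returned to 0.903 (0.813 to 1.00), and all windows beyond it with more than 1 read were low: 0.505 (0.395 to 0.647) at 16063 to 16102, 0.449 (0.408 to 0.495) at 16023 to 16062, 0.277 (0.188 to 0.405) at 15863 to 16022 and 0.526 (0.445 to 0.622) at 15423 to 15662. The share of CU5T45 was thus close to that of oligo(dT)10-25 at the main group and in 1 patch downstream of it. Among the 5 main positions the ratio ran from 0.831 (0.764 to 0.903) at 16166 to 1.04 (0.983 to 1.10) at 16161.

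Single positions were compared where they had 30 or more reads over both libraries, and called where the share differed at least 2-fold with an interval that excludes 1. Of 54 such minus-strand positions 19 were lower in CU5T45, or 35.2%, against a background of 13.4% of all 24272 positions in the genome, and 2 were higher, or 3.70%, against 13.9%. On the mitochondrial plus strand the shares were 29.9% lower and 4.10% higher of 658 positions, close to those of the minus strand. The control region supplied 44 of the 54, with 16 lower and 2 higher, and the rest supplied 9, with 3 lower. The tRNA cluster had 1 position with enough reads, which was not called, and mt-Nd6 had 0, so at this depth no single end in mt-Nd6 could be compared. Against mitochondrial reads alone, 3 minus-strand positions were lower and 13 higher.

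Both higher positions lay side by side in the control region. Position 16120 had 89 reads in CU5T45 and 18 in oligo(dT)10-25, a ratio of 2.56 (1.53 to 4.51), and 16119 had 32 and 6, a ratio of 2.76 (1.14 to 8.06). Their neighbour 16118, with 75 and 27 reads, had a ratio of 1.44 (0.914 to 2.32), an interval that includes 1. The lowest control-region positions were 16139 (9 and 25 reads, 0.186), 16043 (18 and 42 reads, 0.222), 16032 (10 and 22 reads, 0.235) and 16107 (11 and 23 reads, 0.247). Positions 16139 and 16107 lie in the same patch, 16103 to 16142, as both higher positions.

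Among the 54 positions with 30 or more reads, the lowest ratio belonged to an end just past mt-Ta, the alanine tRNA. Position 5011 had 26 reads in CU5T45 and 202 in oligo(dT)10-25, 3.86 and 58.0 CPM, a ratio of 0.0665 (0.0424 to 0.100) or a 15.0-fold lower share. The last base of this RNA, 5012, is 6 nt beyond the 3′ end of the tRNA and opposite mt-Tw, the tryptophan tRNA of the other strand, and is the second A of the capitals in the sequence opposite mt-Tw. Inside mt-Ta, at base 60 counted from its 5′ end, position 5026 had 42 and 14 reads, a ratio of 1.55 (0.830 to 3.07). These ends lie 15 nt apart and their intervals do not overlap. The exact 3′ end of mt-Ta had 3 and 18 reads. CU5T45 thus recorded more reads inside this tRNA than past it, and oligo(dT)10-25 the reverse.

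In mt-Tq, the glutamine tRNA, the main end was in the middle of the molecule. Within the gene there were 602 and 428 reads, of which 436 and 295 ended at position 3805, a ratio of 0.764 (0.657 to 0.889). This end is at base 37, where the sequence reads TTGAA: the TTG of the anticodon followed by 2 A. Another A pair further along, position 3798, had 43 and 63 reads and a ratio of 0.353 (0.234 to 0.528), lower than that of the anticodon end. The annotated 3′ end of mt-Tq had 0 and 0 reads. As at mt-Ta, there was an end 6 nt past the gene, position 3765, with 1 and 12 reads and a ratio of 0.0431 (0.00101 to 0.291); it had too few reads for a call.

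The other tRNA genes fell into 3 kinds. mt-Tc, for cysteine, was the one whose most used end was its exact 3′ end, with 7 and 11 of 15 and 27 reads. mt-Tp, for proline, had 7 and 8 reads at its exact end but 35 and 32 at base 53, position 15369, with a ratio of 0.565 (0.340 to 0.943) and 87 and 105 reads in the whole gene. mt-Te, for glutamate, and mt-Tn, for asparagine, had 0 reads at their 3′ ends; the reads stood at the last base before the gene begins. These were 27 and 33 at position 14139 before mt-Te, a ratio of 0.423 (0.245 to 0.725), and 5 and 21 at position 5159 before mt-Tn, a ratio of 0.123 (0.0363 to 0.335). mt-Ty, for tyrosine, had 0 and 3 reads at that place and none inside, and mt-Ts1, for serine, had none at all.

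**Figure D3:**
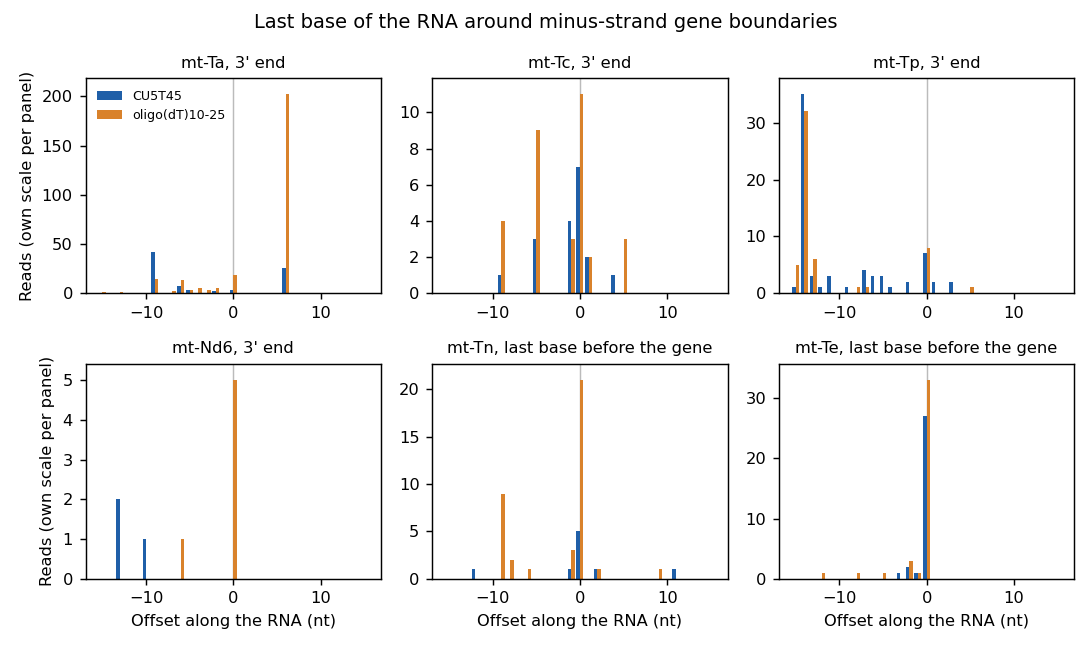
Reads (vertical axis, own scale in each panel) by offset in nt of the last base of the RNA from 6 minus-strand gene boundaries, with CU5T45 and oligo(dT)10-25 as paired bars; offset 0 is the 3′ end of mt-Ta, mt-Tc, mt-Tp and mt-Nd6 and the last base before mt-Tn and mt-Te. The tall oligo(dT)10-25 bar 6 nt past mt-Ta is its 202 reads, and mt-Tn and mt-Te peak at 0.

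mt-Nd6 had no dominant end. Its most used position, 13808, in the middle of the gene at base 262, had 9 reads in each library, and the next, 13806, had 7 and 1. Of its 103 positions 60.2% had a single read. The exact 3′ end of the annotated gene, shown above as the last A of the mt-Nd6 end sequence, had 0 and 5 reads. The window of 10 nt on either side, which includes those reads, had 1 and 6. Ends inside the gene, 114 and 95 by last base, therefore outnumbered those at its 3′ end in both libraries.

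Within 10 nt of the 3′ ends of all 9 minus-strand genes there were 129 and 326 reads, a ratio of 0.205 (0.165 to 0.252). Position 5011 held 26 of the 129 and 202 of the 326. Without it the ratio was 0.429 (0.327 to 0.562), an alternative chosen after the data had been seen. The sums with and without position 5011 also take in position 5026, the end inside mt-Ta, with 42 and 14 reads. A window of 5 nt, which reaches neither position, held 42 and 76 reads, a ratio of 0.286 (0.191 to 0.422). The minus-strand RNA was in this respect marked more by ends inside and between genes than by ends at annotated 3′ ends.

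Most of the remaining ends lay opposite genes of the plus strand. mt-Cytb, cytochrome b, had 394 and 368 minus-strand reads opposite it, a ratio of 0.553 (0.479 to 0.640). Of these, 202 and 143 lay at 14188 to 14303, spread so that the most used position, 14263, had 19 and 17. mt-Nd5, a complex I subunit, had 330 and 209, a ratio of 0.816 (0.684 to 0.975). These were 6.15% and 6.42% of all reads recorded within mt-Nd5 on both strands, and 1.15% and 0.625% within mt-Cytb. mt-Nd4 had 104 and 76, mt-Nd1 90 and 97, and mt-Nd2 65 and 56. Opposite the ribosomal RNAs mt-Rnr1 and mt-Rnr2, at the far end of the strand from the promoter, there were 31 and 48 and 35 and 54 reads, with ratios of 0.334 (0.205 to 0.535) and 0.335 (0.212 to 0.522). These intervals do not overlap that of mt-Nd5.

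Opposite mt-Nd5 the ratio was uneven. In the bins of 500 nt at 12800 to 13299 and 11800 to 12299 the ratios were 1.01 (0.716 to 1.45) and 1.01 (0.767 to 1.33). The bin between them, 12300 to 12799, had 0.652 (0.427 to 1.00). The bin at 13300 to 13799, which reaches into mt-Nd6, had 0.517 (0.362 to 0.738). Both bins at 1.01 sum groups of ends with unlike ratios. The ends at 12201 to 12251, chained where gaps were at most 24 nt, had 137 reads in CU5T45 and 45 in oligo(dT)10-25. Their ratio of 1.57 (1.12 to 2.26) was the only one among 24 such minus-strand groups whose interval lay above 1, and it did not reach 2-fold. In the same bin the group at 11960 to 12071 had 15 and 23 reads, a ratio of 0.337 (0.164 to 0.674). In the other bin at 1.01, the group at 12799 to 12890 had 59 and 20 reads, a ratio of 1.52 (0.905 to 2.67).

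Along the strand the level fell from 2561 and 3001 CPM in the 500 nt that hold the main group to 56.4 and 112 CPM in the next 500 nt, 17.7 and 37.6 in the one after and 11.0 and 25.6 in the fourth. It did not fall steadily after that. It was 44.1 and 67.5 CPM at 13800 to 14299, 16.3 and 97.0 at 4800 to 5299 and 85.0 and 111 at 3800 to 4299, the bin of mt-Tq. The first of these bins held 297 and 235 reads. Position 14139 before mt-Te gave 27 and 33 of them. The ends at 14188 to 14303, opposite mt-Cytb and reaching just past the bin, had 202 and 143.

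Between 6310 and 11016, a stretch of 4707 nt, no minus-strand end was recorded in either library and no CLIP alignment in either replicate. The plus strand was nearly empty there as well, with 389 and 181 reads, 0.235% and 0.0998% of its total. mt-Co2, mt-Atp8, mt-Atp6 and mt-Nd3, respiratory chain and ATP synthase genes that cells need, were listed at 0 on the plus strand in both libraries. The missing ends, including those of mt-Ts1, therefore cannot be read as absence of RNA, and how reads from the stretch were lost was not tested.

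**Figure D4:**
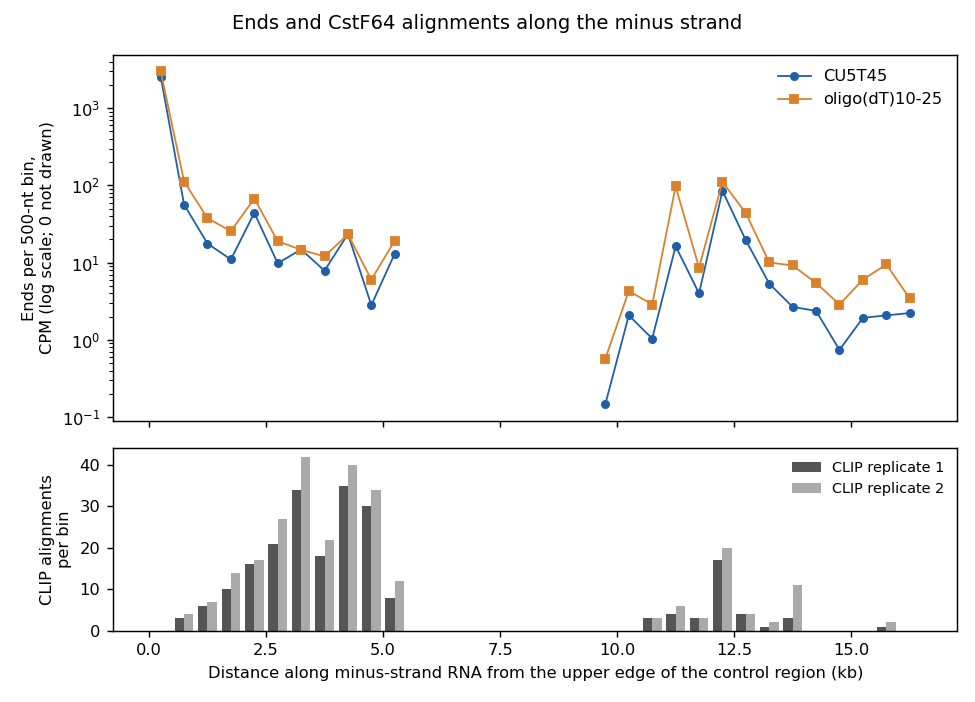
Top: minus-strand ends per 500 nt in CPM (vertical log axis, bins at 0 not drawn) for CU5T45 and oligo(dT)10-25, by distance in kb along the RNA from the upper edge of the control region. Bottom: distinct CstF64 CLIP alignments per bin in each replicate; ends peak at the left edge, alignments peak between 2.5 and 5 kb, and both are empty over the 4707 nt stretch.

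Outside the control region the sequence at the ends could be read for 1115 positions. A run of exactly 2 A closed 11.3% of them and a run of 3 or more 3.86% (2.80 to 5.16). Among the 10941 minus-strand sites of known sequence where the next base is not A, the shares were 6.53% and 2.33%. Those sites take in the nearly empty stretch of 4707 nt, where no end was recorded, so they are not a matched background. In addition, a tail that starts anywhere in a run of A is recorded at the close of that run. Longer runs therefore gather ends from more places, and the higher shares cannot show a preference for runs of A. Genomic stretches rich in A just downstream (6 A in a row or 7 in 10 nt), which can be captured without a tail, followed 2 of 1102 positions, 0.181% (0.0220 to 0.654), against 0.387% of sites. A run of A that directly follows an end is taken into it, so this count misses such runs. It therefore cannot tell how many ends were captured without a tail. The motif AATAAA, the nuclear poly(A) signal, searched on the RNA strand in the 40 nt up to the end, was found at 2.03% (1.28 to 3.06) of positions and 5.03% of sites. By reads it preceded 0.907% of 1433 in CU5T45 and 1.22% of 1310 in oligo(dT)10-25, counting only reads whose 40 nt are known. The 2003 and 1902 reads at ends of known base thus enter in part, and the main mt-Tq end, position 3805, does not enter. A match is a description of the sequence only.

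CstF64 CLIP alignments on the strand were distributed differently from the ends. The minus strand held 5.02% (4.39 to 5.71) and 5.62% (4.98 to 6.30) of the mitochondrial alignments. Of the 217 and 270 alignments, the control region had 1 and 2, 0.461% and 0.741%, although it held most of the 3'READS reads. mt-Nd6 had 31 and 35, 14.3% (9.92 to 19.7) and 13.0% (9.20 to 17.6), the tRNA cluster 4 and 6, and the rest 181 and 227. Per 100 nt this came to 5.97 and 6.74 in mt-Nd6 and 0.114 and 0.228 in the control region. The replicates shared 188 identical alignments, 86.6% and 69.6% of each, and differed by less than sampling noise over 500-nt bins (chi-square 3.90 on 11 degrees of freedom), so they count as 1 sample. There was no control library, and the cells differ from those of the mix.

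The 5 CLIP sites with most alignments all lay opposite or inside genes and held 46.5% and 42.6% of the alignments. The first, 11454 to 11562 opposite mt-Nd4 and mt-Th, had 22 and 27 alignments, of which 41 over both replicates shared the 3′ end 11496. The second and the third lay opposite mt-Nd5, at 12087 to 12171 (22 and 25) and 13120 to 13233 (21 and 26). The fourth covered mt-Tq, with 19 and 20 alignments in the gene, 26.8 and 28.2 per 100 nt, and 13 of them over both replicates shared the 3′ end 3810, a few nt short of the anticodon end of 3'READS. The fifth, 13769 to 13895 in mt-Nd6 with 17 and 17, took in the most used mt-Nd6 end and 71 and 50 reads in all. The first 3 had few 3'READS reads inside them, between 4 and 14 in each library, and the site at mt-Tq had the most of the 5, with 603 and 430. Many alignments thus lay both where ends were few and where they were many. CLIP coordinates are printed as deposited and may be off by 1 nt, since the base from which they count was not settled.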

How the data were processed

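The deposited files hold whole-number read counts, per the file values and with no normalization stated per the labels: 1 line per end position, strand and count for 3'READS, and 1 line per distinct alignment for CLIP. The submitters' processing notes name mm9, Bowtie and Novoalign. Their roles, the read filters and any demand for untemplated A are not given in the sources used here. Per the labels' protocols, libraries were amplified by 12 PCR cycles and read for 72 nt. Where nothing states separate cultures, the CLIP replicates may be technical.

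From these counts, shares of all reads of a library, CPM and the ratio of shares with its exact conditional binomial 95% interval were computed. Intervals of shares are Clopper-Pearson. A count of 0 was set to 3 reads in a ratio. CLIP alignments were placed by midpoint. Scripts ran in Python 3.11.15 with scipy 1.17.1 for intervals, pandas 2.3.3 and numpy 2.4.6 for tables and matplotlib 3.10.9 for plots.

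The ratio was tested on simulated Poisson counts at 24272 positions: 72% of 2-fold and 99% of 4-fold changes had an interval excluding 1 on the right side. In the 2-fold run 3.86% of unchanged positions had an interval excluding 1, and 1.33% met the rule for a call. Poisson counts hold no extra spread from PCR copies, so these rates cover counting error only. Regions, lists and named items (the 5 most used positions of each region, the 5 highest and lowest ratios, every minus-strand gene, genes opposite minus-strand reads and the 5 CLIP sites with most alignments) were chosen with earlier results of these data known. The groups of ends opposite mt-Nd5 and mt-Cytb, the control-region windows and the empty stretch fall outside that rule and were picked after their values were seen. GENCODE vM21 on GRCm38 supplied genes and transcript sequence and was used for chromosome M only, where its sequence was checked against the recorded ends of both strands. Alternatives changed the denominator, the read minimum, position counting, gene windows, thinning, a 1-nt shift, and, for CLIP, each replicate, read counting and placement.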

Additional observations from a re-analysis of the deposited data

How the results depend on the processing

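Of 67 alternatives, 38 left a value within the interval of the reported one, or a count of calls close to the reported count. Some of the 38 were fixed in advance: leaving out a CLIP replicate, and the 1-nt shift of regions for the whole strand. A further 25 moved the value or count beyond that, and 4 turned a direction. Those 4 took mitochondrial reads as the denominator and gave 1.62 for the strand, 1.71 for the control region, 1.33 for mt-Nd6 and 1.09 for the rest; the tRNA cluster was then 0.702. With nuclear reads as the denominator the strand gave 0.773 and the control region 0.820. Each position counted once gave 0.683 for the strand, 0.675 for the control region, 0.479 for the tRNA cluster and 0.687 for the rest. With positions of 2 or more reads only, mt-Nd6 gave 0.895, with an interval that includes 1. Without the most used position of each region the values were 0.748, 0.803, 0.188 in the tRNA cluster and 0.494 in the rest, and without the 2 most used, chosen after the data had been seen, 0.696, 0.732 and 0.204 for the strand, the control region and the tRNA cluster. At gene ends, windows of 5 and 25 nt gave 0.286 and 0.273, and leaving out position 5011 gave 0.429. Positions lower in CU5T45 numbered 42 and 8 at minimums of 10 and 100 reads, 11 as chained groups and 3 against mitochondrial reads; higher ones numbered 1 at a minimum of 100, 0 as chained groups and 13 against mitochondrial reads. The cause of these changes was not tested. Leaving out either CLIP replicate returns the share of the other, which lies within its own interval by construction. Those shares were 0.461% to 0.741% in the control region and 13.0% to 14.3% in mt-Nd6. They were 1.84% to 2.22% in the tRNA cluster and 83.4% to 84.1% in the rest. With every CLIP read counted the shares were 0.528%, 12.9%, 2.69% and 83.9%, within counting error. Placement of CLIP alignments by the 5′ end left the shares unchanged. mt-Nd6 had no position of 30 reads, so depth limits it to sums. No paired analysis was possible because each oligo had 1 library.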
